A study of Homo sapiens with 6 samples.

Results

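The mesoderm lineage genes described here are transcription factors, a receptor and contractile proteins that mark the primitive streak and the tissues formed from it: heart, paraxial mesoderm and muscle, and intermediate and lateral mesoderm. They were chosen by name, from a list of 34 genes, as every probe of the array whose gene name equals a member. The rule itself uses no measured value, but the list was drawn up with earlier results of these data known. All 34 genes had a probe, out of 31334 gene names on the array, and they had 56 of its 47230 probes. A single probe represented 20 members, 14 had several, and TBX1 had the most, 5. The gene T is brachyury, now named TBXT.

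The samples were H1 cells, an established human embryonic stem cell line, grown without feeder cells on Matrigel at passage 32. The 3 control shRNA samples were transfected with 2 µg of a pSUPER plasmid expressing a short hairpin RNA against luciferase, and the 3 HERVH shRNA samples with the same amount of a pSUPER plasmid against HERVH, a family of endogenous retroviruses that is highly transcribed in human pluripotent cells. RNA was taken 5 days later from both groups and hybridised to Illumina 1-colour expression arrays, and the question was which genes are affected by HERVH depletion. The labels name 1 plasmid per group and no selection of transfected cells, and they do not say whether replicates were separate cultures, so the p-values measure only the spread between these samples, which may be technical.

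In the embryo, epiblast cells pass through the primitive streak under NODAL, WNT and BMP signals, where brachyury, EOMES and MIXL1 are switched on. Cells that leave the streak switch on MESP factors and then, by position, paraxial, intermediate, lateral or cardiac programmes. The cardiac programme leads from HAND, ISL1, NKX2-5, GATA and MEF2 factors to the proteins of the contractile sarcomere. Undifferentiated human embryonic stem cells resemble the epiblast and keep most of these genes low.

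The 3 largest rises among the members were in contractile and cardiac genes, while no primitive streak probe moved by more than 0.24 on the log2 scale. Cardiac actin (ACTC1) was 10.6-fold higher with HERVH shRNA on 1 of its 2 probes, and the other, near background, did not pass the test. The atrial myosin light chain MYL7 was 3.59-fold higher, and the heart and limb regulator HAND1 rose from near background to at least 2.62-fold higher. FOXC1 was 2.39-fold and ISL1 2.16-fold higher. The contractile genes TNNT2 and MYL4 and the cardiac regulators HAND2, TBX1, TBX5 and TBX20 did not pass on any probe. Brachyury and MIXL1 did not pass either, and EOMES was 1.15-fold lower. Each value rests on 3 arrays per group, and in these bulk samples more cells of a type and more RNA per cell cannot be told apart, nor can fewer cells and less RNA per cell.

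Probes were tested with limma on log2 intensities after background correction and quantile normalization, and a probe is said to have risen or fallen where its p-value, adjusted over all probes by the Benjamini-Hochberg method, was below 0.05. Of the 56 probes, 15 rose (26.8%), from 14 genes, 1 fell (1.79%) and 40 did not pass. Of all probes on the array, 12.5% rose and 13.0% fell. The members' share of probes that rose was above the array's and their share that fell was below it. In controls 43 of the 56 were near background, where a fall may not be detectable, which limits the reading of the share that fell. Only EOMES fell, and at an unadjusted p below 0.05 there were 2 lower probes, EOMES and TCF15. The median log2 difference of the 56 probes was 0.08, against 0.00 (0.0021) over all probes. The median of the members was 0.17 with an offset of 16, 0.29 over the probes kept by a filter on dim probes and 0.15 on the deposited values. That filter used the mean over all arrays, HERVH arrays included. It therefore kept HAND1, OSR1 and PDGFRA, which were near background in controls, and such selection can raise the median.

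**Figure D1:**
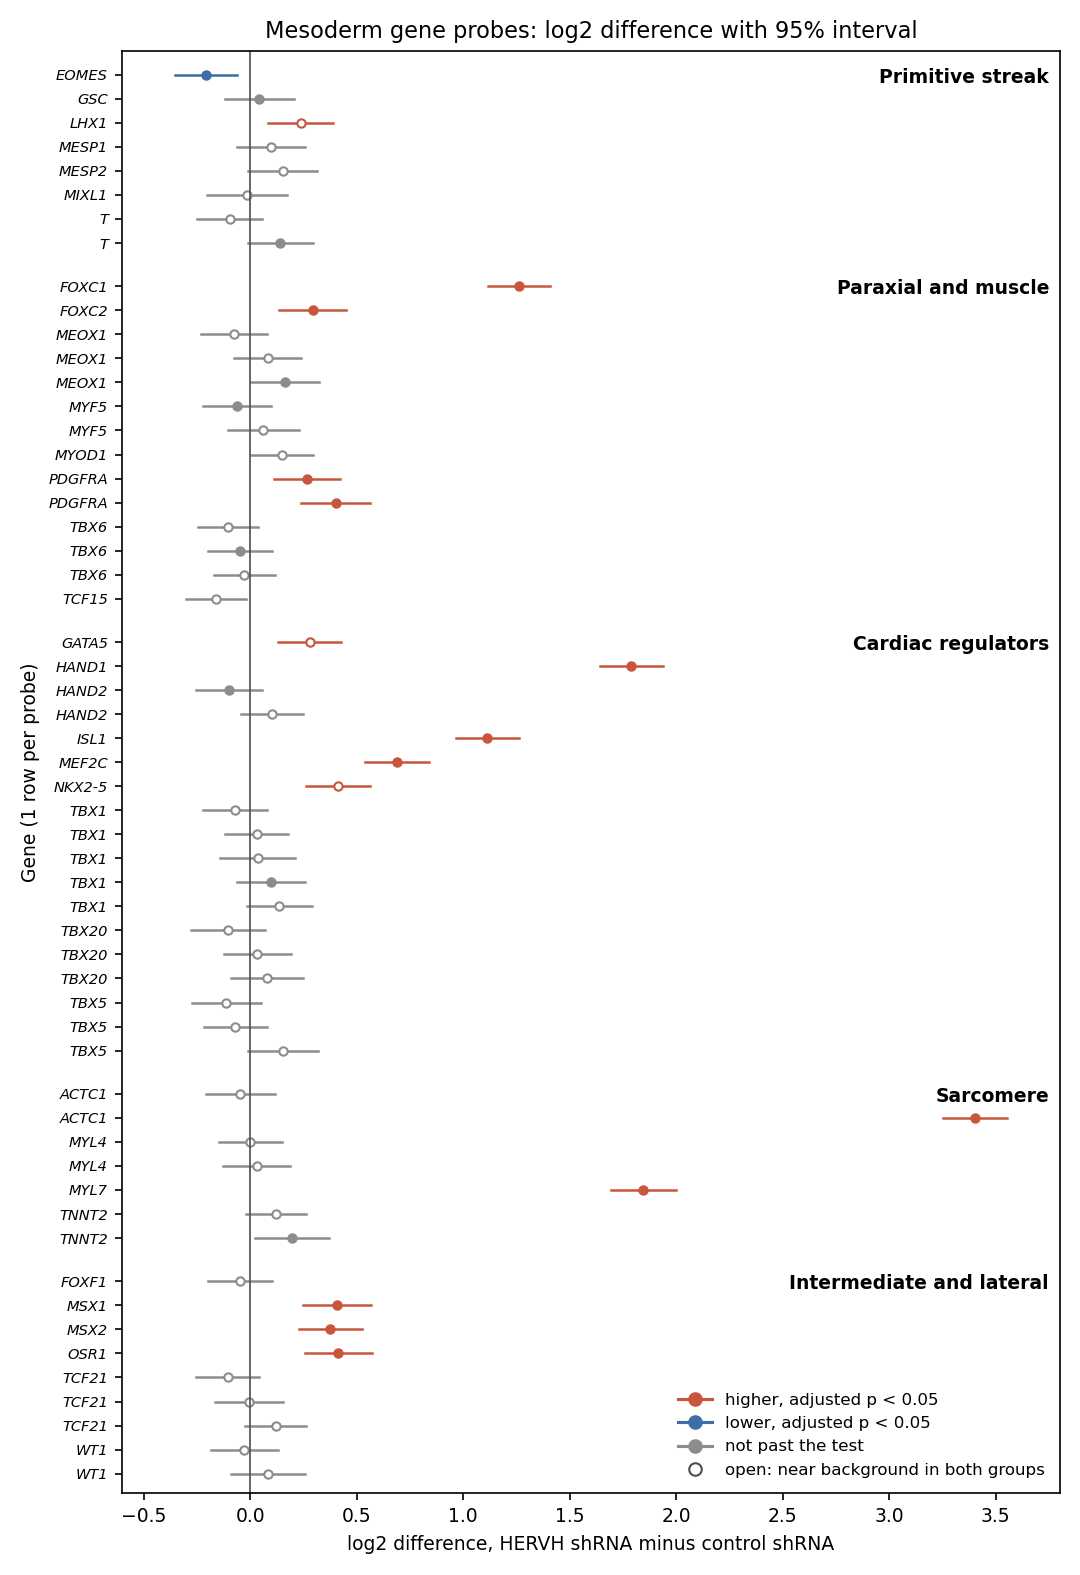
Log2 difference (HERVH shRNA minus control shRNA, x axis) of each of the 56 member probes (1 row per probe, grouped by role), with the 95% interval of the limma fit as a line. Red marks the 15 probes that rose, blue the 1 that fell and grey the 40 that did not pass, and open circles mark probes near background in both groups. The ACTC1 probe at 3.40 lies far to the right of all others.

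Detection calls per sample were not used here, so background was read from 446 probes of olfactory receptor genes, which are taken to be silent in stem cells. A probe counts as near background in a group when its mean there is at or below the 95th percentile of these probes, which is 75.2 intensity units in the control group and 78.0 in the HERVH group. On this measure 43 of the 56 member probes were near background in the control group and 37 with HERVH shRNA, 35 of them in both. Over the whole array 43.9% of probes were above the limit in the control group and 43.0% with HERVH shRNA. Of the 40 probes that did not pass, 32 were near background in both groups, where a difference may not be detectable. For 14 of the 34 genes every probe was near background in both groups. Where 1 group is near background, the fold is printed as a lower bound, against the higher, on each array of that group, of the probe's own value and the 95th percentile of the single olfactory receptor probes on that array. Where both groups are near background no fold is printed, and a log2 difference given for such a probe is a fitted value with no measured size. The offset of 50 added before log2 makes fold changes of dim probes smaller than the ratio of their intensities.

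The sarcomere genes encode the contractile machinery of heart muscle. The ACTC1 probe read 853, 832 and 928 intensity units in the control samples and 8522, 9063 and 8711 in the HERVH samples. The groups stood far apart, with the lowest HERVH sample, 8522, well above the highest control, 928. Both groups were above background, so on this probe ACTC1 was not low in the controls. The log2 difference was 3.40 ± 0.07 (SE, n = 3 per group, limma adjusted p = 3.68e-21). A second ACTC1 probe did not share this: it read 64.2 ± 5.41 (SD, n = 3) in controls and 63.7 ± 5.21 (SD, n = 3) with HERVH shRNA, near background in both groups. Its log2 difference was -0.05 ± 0.08 (SE, limma adjusted p = 0.775), so the rise in ACTC1 rests on 1 of its 2 probes, and where each probe lies on the transcript was not examined.

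MYL7, the regulatory myosin light chain of the atria, read 134, 156 and 156 in controls and 546, 550 and 542 with HERVH shRNA. These groups did not overlap, and the HERVH samples varied less (SD 3.64) than the controls (SD 12.7). The log2 difference was 1.85 ± 0.07 (SE, limma adjusted p = 3.4e-16). Cardiac troponin T (TNNT2), part of the calcium switch of the thin filament, had 2 probes that did not pass: the brighter read 82.2, 89.6 and 95.7 in controls and 88.5, 114 and 109 with HERVH shRNA. Its groups overlapped through HERVH replicate 1, and its limma adjusted p was 0.1; without that array it was 0.00674. MYL4, the essential light chain of atrial and embryonic muscle, stayed near background on both probes, with means from 50.5 to 71.2 intensity units over probes and groups.

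The promoters of the 5 members with the largest fitted log2 differences are shown, because those of the contractile genes ACTC1 and MYL7 share a motif. A CArG box, the site of serum response factor in muscle gene promoters, starts 109 bases before the start of ACTC1 and 61 bases before that of MYL7. Promoters of 23 of the 34 members were matched by symbol in RefSeq (GRCh38.p14), as 250 bases before to 50 after the start. For each member the first listed start was taken, whereas the shares over RefSeq promoters include further starts of a gene. These 2 were the only ones of the 23 with a CArG box, which 1.29% of 35116 RefSeq promoters hold. The promoter of the contractile gene TNNT2 holds no CArG box, and MYL4 had no promoter matched. RefSeq lists 3 starts for ACTC1, and the other 2 promoters hold no CArG box. Capitals mark the CArG box, TATAAA (in 11.5% of all promoters), AGATAA (10.3%), TNAAGTG (10.2%), the T-box half-site TCACACC (3.45%) and the MEF2 site (0.572%), each searched on both strands. No marked matches overlapped in the 5 sequences, and a match is a description of letters, not of binding.
ACTC1 (chr15:34795500-34795799, minus strand): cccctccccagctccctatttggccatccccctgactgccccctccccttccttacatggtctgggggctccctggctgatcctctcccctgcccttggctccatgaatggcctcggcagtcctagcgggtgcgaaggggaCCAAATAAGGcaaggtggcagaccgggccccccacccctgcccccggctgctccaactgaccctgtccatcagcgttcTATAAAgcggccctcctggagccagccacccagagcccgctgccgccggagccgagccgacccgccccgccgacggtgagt
MYL7 (chr7:44141283-44141582, minus strand): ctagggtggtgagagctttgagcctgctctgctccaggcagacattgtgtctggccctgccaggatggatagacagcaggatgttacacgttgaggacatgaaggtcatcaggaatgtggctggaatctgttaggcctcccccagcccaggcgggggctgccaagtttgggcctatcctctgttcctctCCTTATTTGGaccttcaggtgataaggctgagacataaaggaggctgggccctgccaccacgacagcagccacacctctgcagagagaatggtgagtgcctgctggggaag
HAND1 (chr5:154478178-154478477, minus strand): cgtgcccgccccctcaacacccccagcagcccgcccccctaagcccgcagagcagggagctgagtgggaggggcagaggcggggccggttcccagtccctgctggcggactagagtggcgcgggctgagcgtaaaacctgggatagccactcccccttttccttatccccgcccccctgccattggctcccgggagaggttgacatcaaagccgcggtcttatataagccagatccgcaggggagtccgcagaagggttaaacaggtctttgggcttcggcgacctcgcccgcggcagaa
FOXC1 (chr6:1609665-1609964, plus strand): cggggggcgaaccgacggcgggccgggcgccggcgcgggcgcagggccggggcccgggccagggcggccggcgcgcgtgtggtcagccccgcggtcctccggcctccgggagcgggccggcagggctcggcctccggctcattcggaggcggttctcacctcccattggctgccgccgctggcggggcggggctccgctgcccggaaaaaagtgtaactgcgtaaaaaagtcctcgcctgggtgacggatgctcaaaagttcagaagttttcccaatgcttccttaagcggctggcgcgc
ISL1 (chr5:51383198-51383497, plus strand): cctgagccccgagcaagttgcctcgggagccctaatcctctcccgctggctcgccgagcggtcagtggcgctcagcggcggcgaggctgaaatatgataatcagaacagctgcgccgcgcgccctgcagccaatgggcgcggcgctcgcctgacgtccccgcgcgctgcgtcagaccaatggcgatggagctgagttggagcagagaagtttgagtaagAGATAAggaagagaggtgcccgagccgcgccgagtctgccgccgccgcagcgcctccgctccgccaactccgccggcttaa
The ACTC1 sequence also holds TATAAA 31 bases before the start, and the ISL1 sequence AGATAA 31 bases before it. HAND1 and FOXC1 hold none of the motifs searched.

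Among the cardiac regulators, 5 of 9 genes rose, on 5 of 18 probes (27.8%), and 0 probes fell at either the adjusted or the unadjusted threshold. In controls 15 of the 18 probes were near background, where a fall may not be detectable. Over the whole array 12.5% of probes rose and 13.0% fell. HAND1, a basic helix-loop-helix factor of heart, limb and extraembryonic tissue, read 59.1, 55.3 and 52.7 in controls and 215, 232 and 211 with HERVH shRNA. The controls were near background and the HERVH samples well above it. The rise was at least 2.62-fold (limma adjusted p = 3.45e-16). ISL1, a LIM factor of second heart field progenitors, read 153, 147 and 166 in controls against 356, 340 and 322 in HERVH samples. Both groups were above background and did not overlap, and the log2 difference was 1.11 ± 0.07 (SE, limma adjusted p = 4.23e-12).

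MEF2C, a muscle and heart MADS-box factor, read 48.7, 43.6 and 53.4 in controls and 87.2, 88.1 and 85.2 with HERVH shRNA. It crossed the background limit only with HERVH shRNA, so its rise is bounded at 1.09-fold or more (limma adjusted p = 2.39e-08). NKX2-5, a homeobox factor of cardiac progenitors, read 44.0, 43.1 and 42.4 in controls and 62.8, 60.8 and 67.6 with HERVH shRNA (limma adjusted p = 5.41e-05). GATA5, a zinc finger factor of heart and endoderm, read 54.3, 49.8 and 46.7 in controls and 65.2, 63.6 and 69.0 with HERVH shRNA (limma adjusted p = 0.00358). For both genes the groups did not overlap, yet both groups lay near background, and no fold is given.

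The other 4 cardiac regulators, HAND2, TBX1, TBX5 and TBX20, did not pass on any of their 13 probes. HAND2, the paralog of HAND1, had a probe at 96.0, 77.9 and 80.5 in controls and 79.1, 79.7 and 80.5 with HERVH shRNA, overlapping and above background. Its second probe lay near background with a log2 difference of 0.10 (limma adjusted p = 0.375). TBX1, a factor of pharyngeal mesoderm, had 4 of 5 probes near background in both groups, and the fifth read 79.9, 71.8 and 80.7 in controls and 79.7, 81.5 and 94.7 in HERVH samples. These overlapped too. All 3 probes each of TBX5 and TBX20, T-box factors of the forming heart chambers, were near background in both groups. The 95% interval of the log2 difference of the brighter HAND2 probe ran from -0.25 to 0.06.

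**Figure D2:**
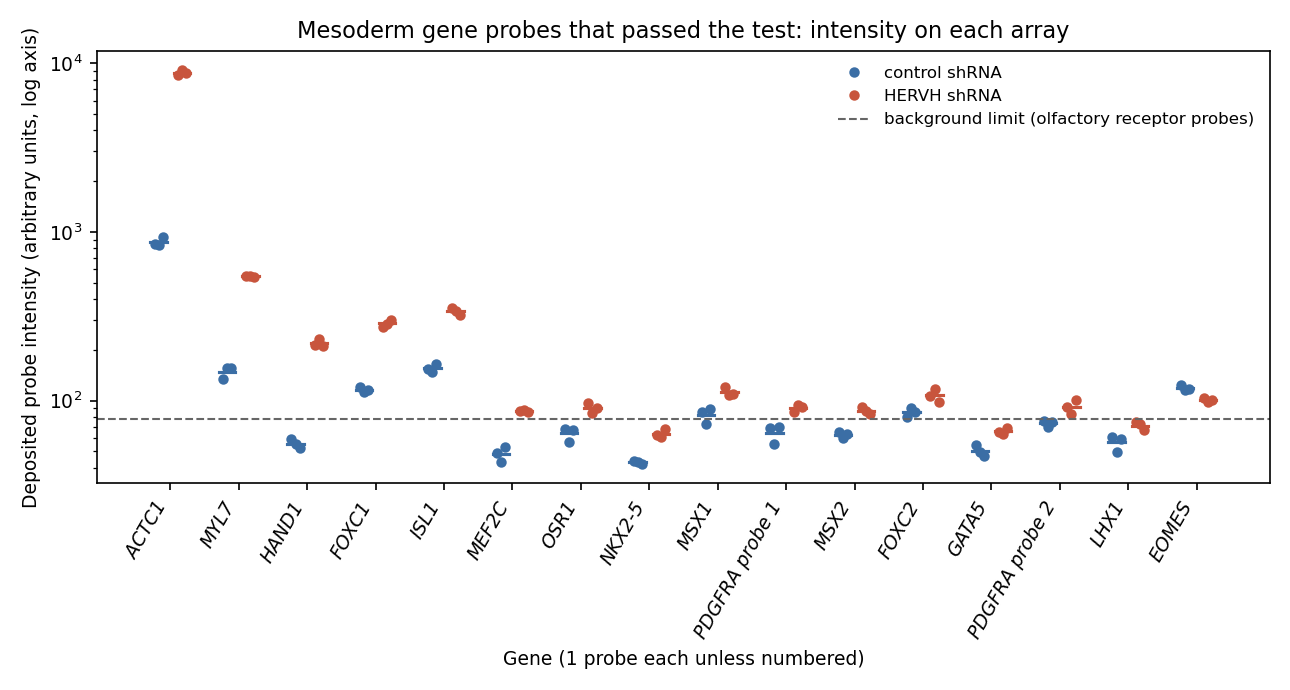
Deposited intensity (y axis, log scale, arbitrary units) on each of the 6 arrays for the 16 member probes that passed the test, ordered by log2 difference; points are arrays, short lines the means of 3. ACTC1, MYL7, HAND1, FOXC1 and ISL1 separate widely, while most of the other probes lie close to the dashed background limit, 78.0.

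Of 8 paraxial and muscle genes, 3 rose on 4 of 14 probes (28.6%), and 0 probes fell (1 at an unadjusted p below 0.05). In controls 10 of the 14 probes were near background, where a fall may not be detectable. The shares over the whole array were 12.5% and 13.0%. FOXC1, a forkhead factor of presomitic, periocular and cardiac mesoderm, read 120, 112 and 115 in controls and 275, 287 and 300 with HERVH shRNA. The groups did not overlap, and the log2 difference was 1.26 ± 0.07 (SE, limma adjusted p = 2.11e-13). Its paralog FOXC2 read 79.6, 90.5 and 86.1 in controls and 107, 118 and 97.9 in HERVH samples. That is a smaller step, 1.22-fold (limma adjusted p = 0.00443), again without overlap. The receptor PDGFRA, a surface marker of early paraxial and cardiac mesoderm, rose on both probes. Its first probe read 68.9, 55.4 and 69.4 in controls and 85.5, 93.7 and 92.2 in HERVH samples, at least 1.13-fold higher (limma adjusted p = 0.000196). The second read 75.7, 69.8 and 74.4 in controls and 91.6, 83.9 and 101 in HERVH samples, at least 1.15-fold higher (limma adjusted p = 0.00802). The 2 probes moved the same way, and only the second lost its call when an array was left out (adjusted p = 0.0679 without HERVH replicate 3).

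The somite and myogenic genes did not pass. TBX6, the T-box factor of presomitic mesoderm, had 3 probes with log2 differences from -0.11 to -0.03. Its brightest read 79.6, 77.7 and 74.2 in controls and 77.0, 69.9 and 82.5 with HERVH shRNA, overlapping. MEOX1, a somite homeobox factor, read 71.1, 60.3 and 69.1 in controls and 81.3, 70.9 and 83.9 in HERVH samples on its brightest probe (limma adjusted p = 0.142). Those values overlap, since HERVH replicate 2 lies within the range of the controls, and without that array the adjusted p was 0.0428. MYF5, a myogenic factor, read 77.1, 90.6 and 70.9 in controls and 76.2, 77.2 and 78.6 in HERVH samples on its brighter probe. The groups overlapped around the background limit. MYOD1, the other myogenic factor listed, and TCF15, a somite factor, were near background in both groups with log2 differences of 0.15 and -0.16.

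Of 6 intermediate and lateral mesoderm genes, 3 rose, each on its single probe (33.3% of 9 probes). At the adjusted or the unadjusted threshold 0 probes fell. In controls 8 of the 9 probes were near background, where a fall may not be detectable. The shares over the whole array were 12.5% higher and 13.0% lower. OSR1, a zinc finger factor of intermediate mesoderm and kidney, read 68.2, 57.0 and 66.7 in controls and 97.5, 84.2 and 90.8 with HERVH shRNA. MSX1, a homeobox target of BMP signalling, read 85.9, 72.4 and 89.1 in controls and 120, 108 and 110 with HERVH shRNA. MSX2, its paralog, read 64.8, 60.2 and 63.8 in controls and 91.4, 86.3 and 83.2 with HERVH shRNA. In all 3 genes every HERVH sample was above every control, although the gaps were under 20 intensity units between the nearest samples. MSX1 was 1.33-fold higher (limma adjusted p = 0.000162), OSR1 at least 1.14-fold (adjusted p = 0.000111) and MSX2 at least 1.09-fold (adjusted p = 0.000132).

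TCF21, a factor of epicardium and visceral mesoderm, had 3 probes near background in both groups. The brightest read 74.7, 75.8 and 68.0 in controls and 68.5, 84.1 and 72.1 with HERVH shRNA, overlapping, with a log2 difference of -0.01 (limma adjusted p = 0.98). WT1, the Wilms tumour factor of kidney and epicardium, and FOXF1, a forkhead factor of lateral plate mesoderm, were near background on all probes, with log2 differences from -0.05 to 0.08.

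Of 7 primitive streak genes, 1 rose and 1 fell, on 8 probes. Each is 12.5% of the probes, close to the 12.5% that rose and 13.0% that fell over the whole array. EOMES, the T-box factor of streak and early endoderm, read 125, 115 and 117 in controls and 103, 97.8 and 101 in HERVH samples. It is the member probe that fell, without overlap, by 0.21 on the log2 scale (limma adjusted p = 0.0275). The call was lost without control replicate 1 (adjusted p = 0.117), control replicate 3 (0.0564), HERVH replicate 2 (0.0973) or HERVH replicate 3 (0.0528). LHX1, a LIM factor of the organizer and of intermediate mesoderm, read 60.5, 49.8 and 59.3 in controls and 74.4, 72.5 and 66.7 with HERVH shRNA. Both groups were near background, so no fold is given for its rise (limma adjusted p = 0.0175). That call was lost without control replicate 2 (adjusted p = 0.128), HERVH replicate 1 (0.0734) or HERVH replicate 2 (0.0562).

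Brachyury, the defining streak factor, had 2 probes that did not pass. The brighter read 65.7, 72.4 and 66.8 in controls and 84.5, 77.5 and 73.4 with HERVH shRNA, so its groups just failed to overlap (limma adjusted p = 0.197). The other read 64.2, 55.9 and 66.7 in controls and 58.6, 63.6 and 58.0 with HERVH shRNA, overlapping and in the opposite direction (limma adjusted p = 0.428). GSC, a homeobox factor of the organizer, read 81.4, 80.7 and 69.1 in controls and 85.4, 85.9 and 72.9 in HERVH samples. Replicate 3 was the low sample in both groups, and the log2 difference was 0.04 (limma adjusted p = 0.805). MESP2, a factor of segmenting mesoderm, read 65.3, 66.9 and 65.1 in controls and 81.1, 83.1 and 65.4 in HERVH samples. HERVH replicate 3 lay among the controls, and the limma adjusted p of 0.196 became 0.0185 without that array. MESP1, the factor of early cardiac mesoderm, and MIXL1, a streak homeobox factor, were near background in both groups with log2 differences of 0.10 and -0.02.

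Over the 40 probes that did not pass, the log2 differences ran from -0.16 to 0.20, and their 95% intervals together ran from -0.30 to 0.37. Among probes that passed and were above background in both groups, those of ACTC1, MYL7, FOXC1, ISL1 and MSX1 had log2 differences outside those intervals on this compressed scale. Those of FOXC2 and EOMES lay inside them. Regardless of the test, all 3 HERVH samples were above all 3 controls for 20 of the 56 member probes and below them for 3. Over the whole array such separation held for 20.8% of probes upward and 15.7% downward.

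A second list held 50 other mesoderm genes, among them the inducing signals, and had 79 probes. Of these, 14 probes (17.7%) rose, from 12 genes, and 5 (6.33%) fell, from 4 genes, with a median log2 difference of 0.02. Over the whole array 12.5% of probes rose and 13.0% fell. NPPB, the natriuretic peptide BNP of heart muscle, read 77.1, 91.2 and 87.4 in controls and 815, 770 and 775 with HERVH shRNA, 8.46-fold higher (limma adjusted p = 2.26e-20). TWIST1, a mesenchymal helix-loop-helix factor, read 103, 104 and 109 in controls and 823, 769 and 804 with HERVH shRNA, 7.14-fold higher (limma adjusted p = 3.39e-20). As with ACTC1, no control sample came near any HERVH sample.

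Of the BMP ligands in the list, BMP4 and BMP2 rose and BMP5 did not pass. BMP4, which induces mesoderm and MSX genes, was 2.85-fold higher on 1 of its 3 probes (176 ± 8.75 against 511 ± 65.7, SD, n = 3, limma adjusted p = 1.21e-13), and the others, near background in both groups, had adjusted p = 0.987 and 0.995. BMP2 was 2.12-fold higher (79.9 ± 5.02 against 181 ± 15.3, SD, n = 3, limma adjusted p = 1.59e-11). DLL3, a Notch pathway ligand of presomitic mesoderm, rose on 2 probes, 1.79-fold and 1.49-fold. The streak signal NODAL fell by 0.22 on the log2 scale (786 ± 46.2 in controls, SD, n = 3, limma adjusted p = 0.0195). FGF8, a growth factor of the streak, fell on 2 probes (limma adjusted p = 0.000978 and 0.00929). The first read 83.1 in controls and lay near background with HERVH shRNA, at least 1.05-fold lower. The second was near background in both groups, and no fold is given. LFNG, a Notch modifier of the segmentation clock, fell by 0.34 (limma adjusted p = 0.00118) on 1 of its 3 probes, and the others did not pass (adjusted p = 0.745 and 0.971). TNNI3, the troponin I of mature heart, fell by 0.45 (limma adjusted p = 3.29e-05), so the sarcomere genes of both lists did not all move one way.

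**Figure D3:**
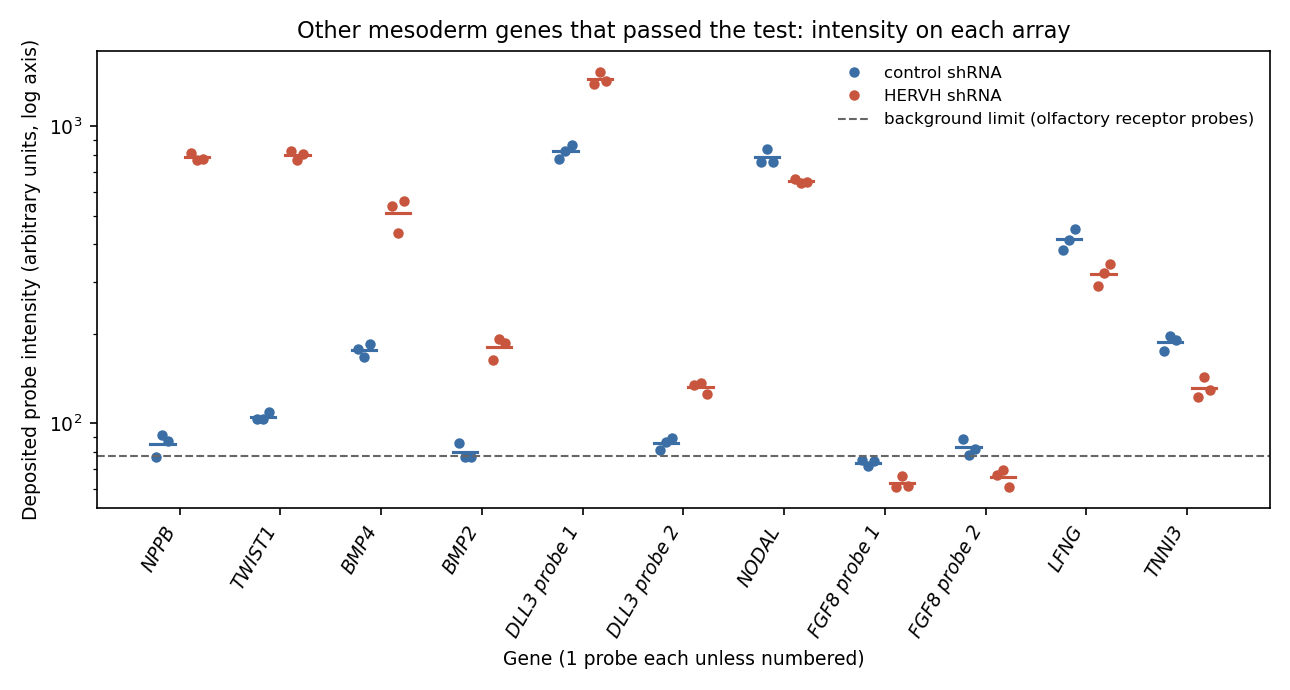
Deposited intensity (y axis, log scale, arbitrary units) on each array for named genes of the second list, ordered by log2 difference. The genes are NPPB, TWIST1, BMP4, BMP2, DLL3, NODAL, FGF8, LFNG and TNNI3. Only probes that passed the test are drawn, so those of BMP4 and LFNG that did not pass are left out. Points are arrays and short lines the means of 3. NPPB and TWIST1 lie at 77.1 to 109 in controls and at 769 to 823 with HERVH shRNA, and NODAL, FGF8, LFNG and TNNI3 lie slightly lower with HERVH shRNA.

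Across the whole series, the 6 arrays had median intensities from 71.2 to 73.8, and Pearson's r of log2 intensity across probes was 0.994 to 0.995 within groups and 0.968 to 0.972 between them. No gene name on the array contained HERVH (0 names), so depletion of the target was not read here. Core stem cell factors fitted the label of the controls: POU5F1 read 2926 ± 248 and SOX2 2482 ± 39.6 (SD, n = 3) on their brighter probes. With HERVH shRNA these read 1389 ± 34.8 and 554 ± 60.2 (SD, n = 3), lower in all 3 samples (limma adjusted p = 6.56e-11 and 5.95e-17). The second SOX2 probe fell less (1794 to 1298, 1.35-fold lower, against 4.28-fold on the first, limma adjusted p = 0.000217). The second POU5F1 probe did not pass (85.6 to 77.8, limma adjusted p = 0.195). Of 2 NANOG probes, 1 fell (583 to 431, limma adjusted p = 5.01e-05). GATA6, a factor of endoderm and heart, and RUNX1, a blood factor, did not pass on any probe and were near background in both groups.

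Markers of other cell types moved beside the mesoderm genes, and their part in the results was not tested. Of 26 probes for fibroblast and mesenchymal markers, 14 rose (53.8%) and 2 fell (7.69%). Among those that rose were ACTA2 and TAGLN, smooth muscle contractile genes (TAGLN on 2 of 3 probes). They read 659 and 6959 in controls and 3679 and 20033 with HERVH shRNA. The 2 probes that fell were both of S100A4 (541 to 244 and 650 to 272, limma adjusted p = 4.84e-12 and 4e-13). DCN, FAP, LUM, POSTN and THY1 passed on no probe. Of 25 trophoblast probes, 9 rose (36.0%) and 0 fell (2 were lower at an unadjusted p below 0.05). HAND1 itself is in that list, beside TFAP2A (higher on 2 of 5 probes) and TFAP2C (2 of 2). Of 26 endoderm probes 7 rose (26.9%) and 2 fell (7.69%). Of 23 neuroectoderm probes 6 rose (26.1%) and 0 fell at the adjusted or the unadjusted threshold. In controls 20 of the 25 trophoblast and 18 of the 23 neuroectoderm probes were near background, where a fall may not be detectable. Endothelial and blood markers had 2 of 27 probes higher and 2 lower (7.41% each). Over the whole array 12.5% of probes rose and 13.0% fell.

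**Figure D4:**
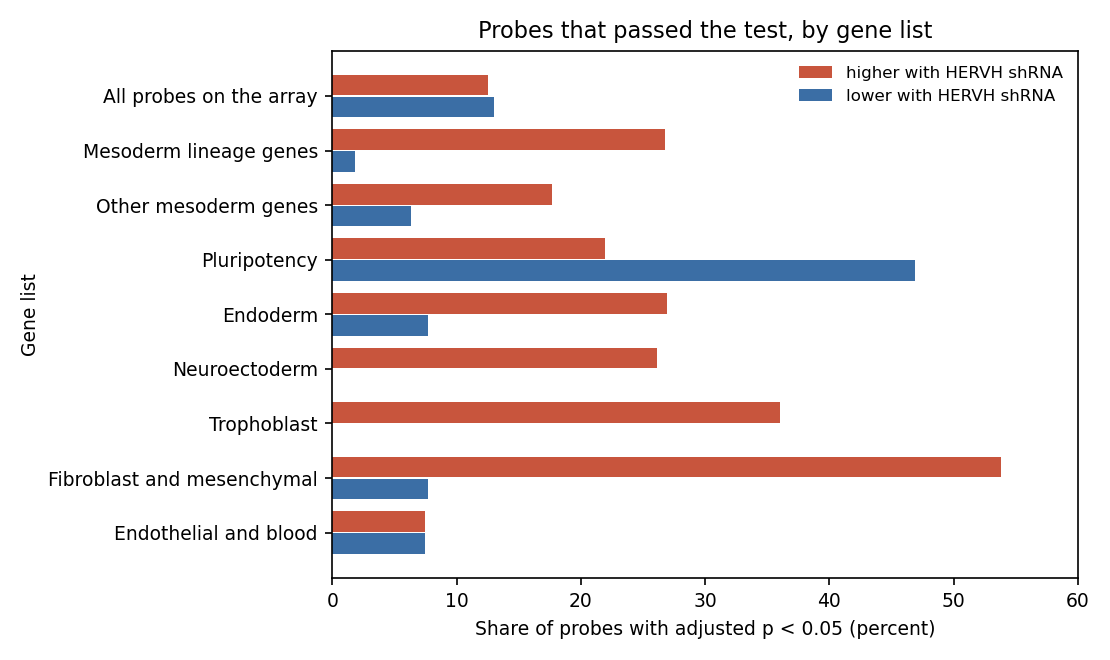
Share of probes (x axis, percent) that passed the limma test upward (red) or downward (blue) with HERVH shRNA in each gene list (y axis), with all probes on the array at the top. The mesoderm lineage genes reach 26.8% upward and 1.79% downward, against 12.5% and 13.0% of all probes, and the fibroblast and mesenchymal list reaches 53.8% upward.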

How the data were processed

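Total RNA of 3 control shRNA and 3 HERVH shRNA samples of H1 cells was amplified from 500 ng and labelled with biotin for Illumina arrays, per the labels' protocols. GenomeStudio is named in the submitters' processing notes, without a version. No source used here gives the array model, the background handling or the normalization behind the deposited values.

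The deposited probe intensities of the series value table are linear and positive, from 28.9 to 27159, with columns named by sample. In the authors' non-normalized table the 12 signal and detection columns (6 of each) carry names that no label uses, so they were not used, and only its probe identifiers and gene names were read. Every one of the 47230 probe identifiers occurs in both tables. Because detection values were not used, no probe was filtered.

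The arrays' quantiles were close but not identical. Intensities were therefore corrected with limma's normexp (offset 50), quantile normalized and taken to log2, and HERVH shRNA was compared with control shRNA for all probes in 1 fit (lmFit and eBayes, limma 3.58.1, R 4.3.3). Calls are Benjamini-Hochberg adjusted p below 0.05 over all probes. Probes of a gene were kept apart. Printed intensities are the deposited values, and folds are from the fit. The number of arrays limits the precision. Replicate numbers are shared between groups, but deviations of same-numbered arrays correlated at 0.06, 0.00 (0.0023) and 0.03, so they were not taken as pairs. The fit was tested on simulated data. Every member with a probe is named. Values in every sample are given for the member probes that passed and, on at least 1 probe, for the 10 other members with the highest mean signal. Of the second list, at most 5 genes a direction with the smallest adjusted p are named. POU5F1, NANOG, SOX2, GATA6 and RUNX1 are named whatever their values. The marker genes ACTA2, TAGLN, S100A4, DCN, FAP, LUM, POSTN, THY1, TFAP2A and TFAP2C were named after their values were seen. The members and lists were chosen with earlier results of these data known. Alternatives covered the background correction, offset, normalization, filter, variance model, array weights, replicate block and leaving out each array.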

Additional observations from a re-analysis of the deposited data

How the results depend on the processing

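Of the 15 member probes that rose, 15 stayed higher without normexp (values floored at 10), with offset 16, median scaling, cyclic loess, a trended robust variance, array weights, the replicate block, or log2 of the deposited values, a setting chosen after seeing the data. A filter on dim probes left 17 member probes tested, of which 10 of the 15 remained higher. The filter used the mean over all arrays, so a probe bright only with HERVH shRNA could be kept. Leaving out each array gave 14 to 15 higher member probes, 0 to 1 lower, 10923 to 11376 called over the array, a member median of 0.06 to 0.09, and 13 to 15 higher and 4 to 5 lower probes of the second list. Where the count of lower probes was 0 in limma, 1 to 3 were lower at an unadjusted p below 0.05. Lower member probes numbered 2 with offset 16 and with probes averaged per gene name, TCF15 joining EOMES (adjusted p = 0.05, just under the threshold before rounding, and 0.0433). The filter left 3 lower probes of the second list, against 5. The member median moved from 0.08 to 0.17 with offset 16, to 0.29 over probes kept by the filter and to 0.15 on the deposited values, where the median over all probes moved from 0.0021 to 0.047; the cause was not tested. With the replicate block, 15 member probes rose, 1 fell and 12078 were called over the array, against 12041; the block changed no member's call. No member probe past the threshold changed sign; sign changes between values that both miss the threshold were not counted. TNNT2's probe at 89.1 units in controls passed with the filter and MYOD1 on the deposited values (adjusted p = 0.0487 for each). Signal over background limits the results, since most member probes lie near it.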
